A study of Mus musculus with 8 samples.

Results

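The insulin-like growth factor (IGF) axis and the Igf2bp genes are described here through 10 mouse genes chosen by name: the ligand genes Igf1 and Igf2, the receptor genes Igf1r, Igf2r and Insr, the adaptor genes Irs1 and Irs2, and Igf2bp1, Igf2bp2 and Igf2bp3. All 10 were found among the 21887 protein-coding genes of the annotation. Chromatin immunoprecipitation followed by sequencing was done on mouse embryonic fibroblasts of the C57BL/6 strain, prepared from embryos at stage E15.5 and used at passages 2 to 4. The 3 libraries used, with antibodies to HMGA2, to γ-H2AX (H2AXS139ph in the labels) and to ATM, all came from cells that were wild-type for Hmga2 (Hmga2 wt). The other 5 libraries of the series, from Hmga2 knockout cells and from input DNA, were not analysed here. Peaks carry no expression, so the fibroblast label could not be checked against marker genes, and the labels do not say whether embryos were pooled.

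IGF1 and IGF2 signal through the receptor kinase IGF1R, which together with its close relative, the insulin receptor, phosphorylates the adaptors IRS1 and IRS2 and so recruits PI3-kinase. IGF2R binds IGF2 without a kinase of its own and carries it to lysosomes. The Igf2bp genes encode RNA-binding proteins that take their name from Igf2 mRNA, and Igf2bp2 is known as a gene whose transcription is raised by HMGA2, a chromatin protein that holds AT-rich DNA through its AT-hooks. The kinase ATM responds to DNA breaks, and γ-H2AX is the phosphorylated form of histone H2AX that it makes. Igf2 and Igf2r are imprinted in the mouse: Igf2 is read from the paternal allele and Igf2r from the maternal one, and the long non-coding RNA Airn, which starts inside Igf2r, silences Igf2r on the paternal allele.

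Among the promoter windows examined, that of Igf1 alone held peaks of more than 1 antibody, and another start in these loci, that of Airn, lay under a γ-H2AX peak. These sequences are shown because the best-placed peaks of the loci fall on them. Both are RefSeq promoter windows on GRCm38.p6, to which mm10 coordinates belong, from 250 bases before the transcription start to 50 bases from it, on the plus strand. In the window of Igf1, chr10:87860861-87861160, capitals mark the 37 bases covered by both an HMGA2 and a γ-H2AX peak. In that of Airn, chr17:12741061-12741360, they mark the 114 bases covered by a γ-H2AX peak.
Igf1: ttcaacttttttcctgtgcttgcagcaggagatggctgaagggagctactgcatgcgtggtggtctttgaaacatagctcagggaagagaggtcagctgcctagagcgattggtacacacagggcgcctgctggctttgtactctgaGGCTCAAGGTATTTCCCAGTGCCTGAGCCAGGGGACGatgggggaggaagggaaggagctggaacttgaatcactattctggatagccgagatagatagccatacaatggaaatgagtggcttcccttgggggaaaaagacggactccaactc
Airn: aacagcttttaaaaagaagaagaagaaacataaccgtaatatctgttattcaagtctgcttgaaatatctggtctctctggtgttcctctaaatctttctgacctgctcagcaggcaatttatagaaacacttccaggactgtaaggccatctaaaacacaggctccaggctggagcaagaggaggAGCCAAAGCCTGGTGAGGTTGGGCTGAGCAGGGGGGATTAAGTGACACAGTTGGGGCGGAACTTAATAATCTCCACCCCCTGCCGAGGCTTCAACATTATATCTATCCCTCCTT

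The HMGA2 peak at the Igf1 promoter spanned 87860843 to 87861044 on chromosome 10 with a score of 26.2, and the γ-H2AX peak spanned 87861008 to 87861137 with a score of 27.65. The score is the authors' own. MACS14, the peak caller, writes it as -10 times the log10 of a peak's p, so a p of 0.01 is a score of 20, and no peak scored lower. The γ-H2AX peak covered the start at 87861111 and is one of the 2220 regions of the deposited γ-H2AX promoter list. The 37 shared bases lie from 103 to 67 bases before the start, and 37.8% of them are A or T. A further HMGA2 peak, at 87861620 to 87861848 with a score of 27.3, was centred 0.62 kb into the gene. The annotation also gives Igf1 a lower end 2.85 kb farther upstream, at 87858265, and an ATM peak at 87858484 to 87858645 (score 22.0) lay just inside it. This ATM peak is one of the 866 regions of the ATM promoter list. Another γ-H2AX peak was centred 0.46 kb outside that lower end. All 3 antibodies thus had a peak near an annotated beginning of Igf1, HMGA2 at the RefSeq start, ATM at the lower end and γ-H2AX at both.

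The γ-H2AX peak at Airn spanned 12741247 to 12741385 on chromosome 17, had a score of 25.9 and is also a region of the γ-H2AX promoter list. It covered the Airn start at 12741311, which lies within Igf2r and 28.4 kb from the start of Igf2r itself. Neighbouring γ-H2AX peaks were found at 12739662 to 12739833, 12743789 to 12743963 and 12745772 to 12745924, with scores of 20.5, 20.1 and 23.4. The nearest ATM peak, at 12748943 to 12749207, was centred 7.76 kb into Airn and had the highest ATM score of the Igf2r locus (32.9). No HMGA2 peak lay within 10 kb of the Airn start.

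**Figure D1:**
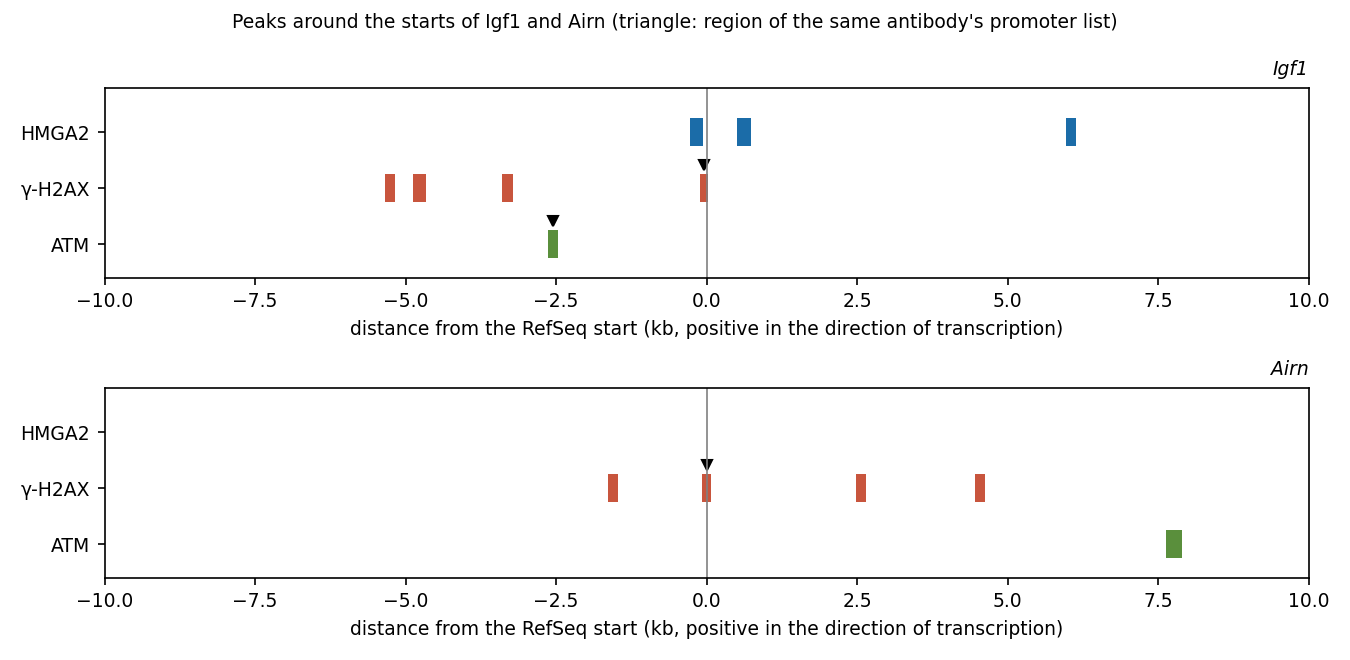
Peaks of HMGA2, γ-H2AX and ATM within 10 kb of the RefSeq starts of Igf1 (upper panel) and Airn (lower panel); bars are peaks drawn to width, the x axis is the distance from the start in kb, and triangles mark regions of the same antibody's promoter list. At Igf1 an HMGA2 peak and a γ-H2AX peak meet just before the start, and at Airn a γ-H2AX peak covers it.

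No other promoter window of the genes was touched. RefSeq windows were available for 8 of the 10 genes, 11 windows in all because Igf2 has 4 starts, and the windows of Insr and Igf2bp1 were not used here. HMGA2 peaks touched 1 of these 11 windows and 1.46% of all 32851 windows, γ-H2AX peaks touched 1 against 3.53%, and ATM peaks touched 0 against 1.81%. With a share of A and T of 47.7%, the Igf1 window stood near the median of all windows (47.3%). Those of Igf1r, Igf2bp2, Irs1, Irs2 and Igf2r, which held no peak, were at 24.0%, 23.3%, 28.7%, 28.0% and 29.3%. The 4 Igf2 windows, also without a peak, were at 47.7%, 50.3%, 35.3% and 36.7%, and that of Igf2bp3 at 39.7%. The Airn window was at 54.3%. The Igf1 window holds 6 CpG dinucleotides and the Airn window 3, while the peak-free Igf2 windows hold 2, 14, 24 and 7. The other peak-free windows hold from 25 (Igf2bp3) to 48 (Igf1r). Only the Igf1 and Airn windows held a peak, too few to relate either measure to peaks. A peak-free Igf2 window had the same share of A and T as Igf1, and another had 7 CpG. The Airn share was above all the others. Of the short AT-rich words searched (each reads the same on both strands and neither holds the other), AATATT was in 0 of the 11 windows and in 6.81% of all windows. AAATTT was in 1, an Igf2 window, and in 7.70% of all windows. The Igf2bp3 window holds a run of 23 A or T, longer than in 98.9% of all windows, and no peak.

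Every peak in the body of a gene or within 10 kb of either end was then counted. The expected number is the mean over every circular rotation of a peak list within its chromosome, so a ratio of 1 is the density of that chromosome. With 1 library per antibody there is no replicate error and no test. The 95% intervals are exact Poisson intervals of the counts, treat peaks as independent and cover counting error only. The lists held 152834 HMGA2, 124947 γ-H2AX and 119570 ATM peaks, with median scores of 23.75, 23.6 and 23.6, and most peaks lay close to the lowest score. Read depth at single peaks is unknown. Which library served as control when peaks were called is not given in the sources used here.

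The 10 genes together held 66 HMGA2 peaks, 105 γ-H2AX peaks and 53 ATM peaks. Expected were 64.2, 55.6 and 53.1, which gave an HMGA2 ratio of 1.03 (0.795 to 1.31), a γ-H2AX ratio of 1.89 (1.54 to 2.29) and an ATM ratio of 0.999 (0.748 to 1.31). HMGA2 and ATM peaks thus stood at the density of their chromosomes, and γ-H2AX peaks above it. Against the density within 1 Mb of each gene, the HMGA2 ratio was 1.32 (1.02 to 1.68), an interval above 1. Over all protein-coding genes the summed ratios against the density of the chromosome were 0.953, 1.12 and 0.991. The ratio against the density within 1 Mb was not computed for all genes, so the 1.32 has no such value beside it. At least 1 peak was found for HMGA2 at 9 of the 10 genes (74.6% of all protein-coding genes), for γ-H2AX at 9 (79.2%) and for ATM at all 10 (77.7%). The γ-H2AX ratio was above 1 at 8 of the 10 genes (46.7% of all protein-coding genes), against 6 for HMGA2 (34.4%) and 3 for ATM (40.7%). The median γ-H2AX ratio of the 10 genes was 1.70, the median HMGA2 ratio 1.10 and the median ATM ratio 0.942, where all protein-coding genes had 0.936, 0.701 and 0.870. The genes are long, with a median of 83.0 kb against 17.2 kb, and in short genes a low expected number often gives no peak at all.

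A ratio of 2 or more was found for γ-H2AX at Igf1r, Irs2 and Igf2bp1, 3 of 10 genes (14.8% of all protein-coding genes). For HMGA2 it was found at 0 (8.69%) and for ATM at 0 (9.13%). Ratios of 0.5 or less were found for γ-H2AX at Igf2 and Insr (27.3% of all genes), for HMGA2 at Igf2 (37.6%) and for ATM at Igf2r (28.7%). Igf1r and Igf2bp1 held 50 of the 105 γ-H2AX peaks. Without these 2 genes, chosen after their values were seen, the γ-H2AX ratio was 1.41, with 55 peaks against 39.1. The scores of the peaks were ordinary for their lists: 10.6%, 8.57% and 11.3% scored 30 or more for HMGA2, γ-H2AX and ATM, against 11.6%, 10.3% and 10.2% of the whole lists.

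**Figure D2:**
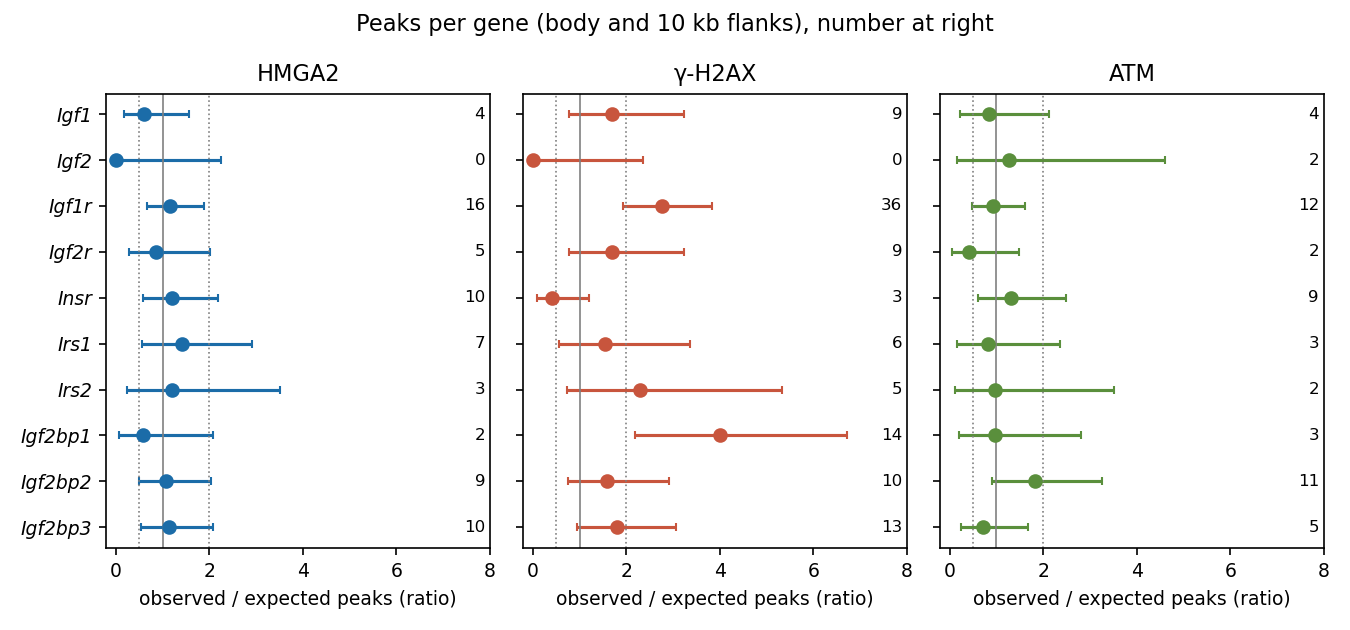
Observed over expected peak number (x axis, ratio) for the 10 genes in the HMGA2, γ-H2AX and ATM lists; points are ratios, bars are 95% Poisson intervals (counting error only), numbers at the right are peaks, and lines stand at 0.5, 1 and 2. For γ-H2AX, Igf1r and Igf2bp1 have intervals that begin at 1.94 and 2.19, whereas every HMGA2 and ATM interval includes 1.

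Among the ligand genes, Igf1 (chromosome 10, 87858265 to 87937047) held 4 HMGA2, 9 γ-H2AX and 4 ATM peaks. The γ-H2AX ratio of 1.70 stood above those of HMGA2 (0.607) and ATM (0.830), and all 3 intervals included 1. Its highest γ-H2AX peak was not the one at the promoter but one at 87941532 to 87941655 (score 35.5), 4.55 kb beyond the far end of the gene. The highest ATM peak, at 87936099 to 87936277 (score 30.0), lay 0.86 kb inside that end, and the next at 87894565 to 87894734 (26.0). Another γ-H2AX peak, at 87857716 to 87857887 (20.5), was centred 0.46 kb outside the lower end. The gene therefore had γ-H2AX and ATM peaks near both of its ends, while its 4 HMGA2 peaks included 3 within 6.05 kb of the RefSeq start.

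Igf2 (chromosome 7, 142650768 to 142666816), the shortest member at 16.0 kb, held no HMGA2 and no γ-H2AX peak. Expected were 1.65 and 1.56, so intervals of the ratios reached up to 2.24 and 2.36, and a count of 0 does not set Igf2 apart at this depth. Its 2 ATM peaks, at 142642349 to 142642498 (score 23.9) and 142642790 to 142642972 (24.0), lay in the flank 8.35 and 7.89 kb beyond its lower end, which is the 3′ side of this minus-strand gene. None of the 4 Igf2 promoter windows held a peak. H19, the maternally expressed non-coding RNA downstream, and Ins2, an insulin gene on the other side, also held no peak of any of the 3 antibodies, with between 0.917 and 1.04 expected.

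Of the receptor genes, Igf1r (chromosome 7, 67952257 to 68233668) is the longest member at 281.4 kb and held 16 HMGA2, 36 γ-H2AX and 12 ATM peaks. Expected were 13.7, 13.0 and 13.0. The γ-H2AX ratio of 2.77 (1.94 to 3.83) stood beside 1.17 (0.667 to 1.90) for HMGA2 and 0.921 (0.476 to 1.61) for ATM. The γ-H2AX interval lay above 1, while those of HMGA2 and ATM included 1. The HMGA2 interval reached nearly to that of γ-H2AX, and the difference between the lists was not tested. Of the 36 peaks, 35 lay in the gene body, with a median spacing of 4.42 kb and a largest gap of 45.8 kb. The highest were at 68185685 to 68185869 (score 34.6) and 67960239 to 67960403 (32.65). In 2.47 kb at 68179602 to 68182068 there were 4. Peaks of HMGA2 scored highest at 68085828 to 68086042 (34.8) and 68024371 to 68024513 (30.3), and those of ATM at 68018513 to 68018728 (28.5) and 68081360 to 68081589 (27.1). No peak lay within 1 kb of the Igf1r start. The nearest were 3.28 kb (HMGA2), 4.17 kb (ATM) and 5.28 kb (γ-H2AX) from it, and the 20 kb after the start held 3 HMGA2, 6 γ-H2AX and 4 ATM peaks.

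Genes with large expected numbers were compared with Igf1r. Among the 1013 protein-coding genes with 10 or more expected peaks of each antibody, the median γ-H2AX ratio was 1.02, beside 1.00 (HMGA2) and 1.01 (ATM), and 6.91% reached 2 or more for γ-H2AX. Igf1r ranked 7 among them for γ-H2AX, 372 in the HMGA2 list and 636 in that of ATM. The genes most like it over the 3 libraries, by the Euclidean distance of log2 ratios, were Tead1, a transcription factor gene of the Hippo pathway (distance 0.222), Hs6st2, a heparan sulfate sulfotransferase gene (0.410), and Hivep2, a zinc-finger gene (0.411). Their γ-H2AX counts were 27 against 10.7 expected for Tead1, 36 against 10.5 for Hs6st2 and 27 against 11.2 for Hivep2. This likeness rests on 3 values per gene.

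**Figure D3:**
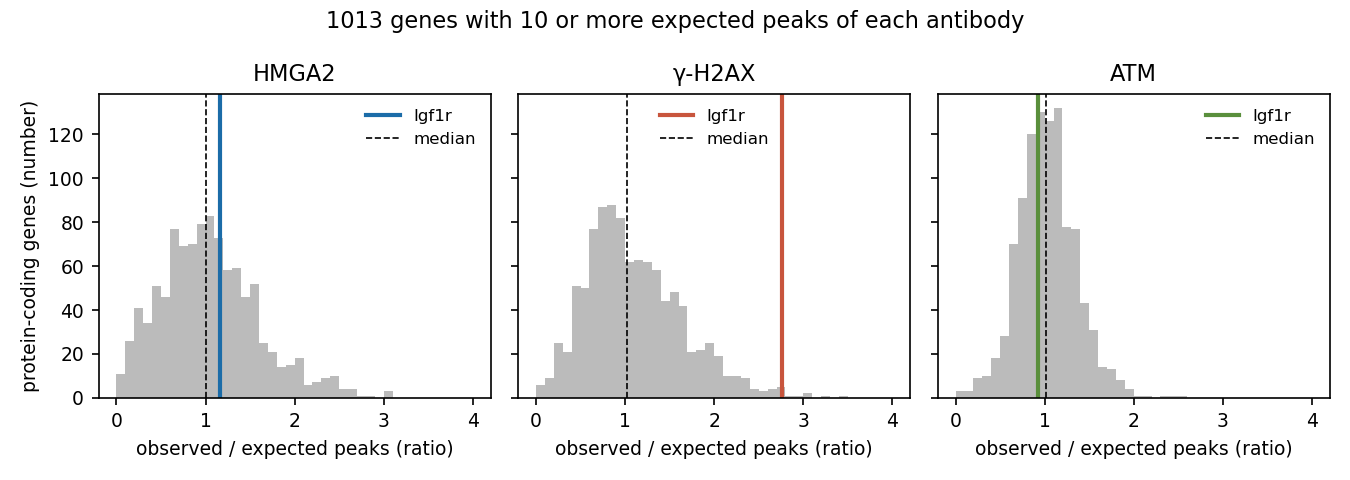
Distribution of observed over expected peak numbers (x axis, ratio) over the 1013 protein-coding genes with 10 or more expected peaks of each antibody; the y axis counts genes, the dashed line is their median and the coloured line is Igf1r. Igf1r lies in the upper tail for γ-H2AX, at 2.77, and near the median for HMGA2 and ATM.

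Insr (chromosome 8, 3150922 to 3279649), which encodes the insulin receptor, showed another balance, with 10 HMGA2, 3 γ-H2AX and 9 ATM peaks. The γ-H2AX ratio was 0.410 (0.0845 to 1.20), against 1.19 for HMGA2 and 1.31 for ATM. It was the lowest γ-H2AX ratio of the members that held any such peak, although its interval included 1. Insr carried the highest HMGA2 peaks of all 10 genes, at 3249640 to 3249770 (score 47.6) and 3209041 to 3209280 (41.6). The first of these had a neighbour 151 bp away, at 3249374 to 3249488 (29.8). The highest ATM peaks were at 3210497 to 3210687 (33.5) and 3227877 to 3228016 (31.7), and those of γ-H2AX at 3212707 to 3212878 (25.7) and 3242841 to 3243048 (20.5). No peak of any kind lay within 1 kb of an Insr end, and none overlapped a peak of another antibody.

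Igf2r (chromosome 17, 12682406 to 12769706) held 5 HMGA2, 9 γ-H2AX and 2 ATM peaks, at ratios of 0.867, 1.71 and 0.410. The ATM ratio was the lowest of the 10 genes for that antibody, with an interval of 0.0496 to 1.48. Its body overlaps that of Airn, and 3 of the γ-H2AX, 2 of the HMGA2 and 1 of the ATM peaks lie in both, so they cannot be given to 1 of the genes. The highest γ-H2AX peak was at 12716887 to 12717074 (score 28.45). HMGA2 peaks scored highest at 12728847 to 12729003 (29.6) and 12758877 to 12759030 (24.2), and the second ATM peak was at 12701933 to 12702103 (25.9). Over the whole of Airn (118.6 kb and its flanks) the counts were 8 HMGA2, 10 γ-H2AX and 6 ATM, with ratios of 1.07, 1.47 and 0.952.

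**Figure D4:**
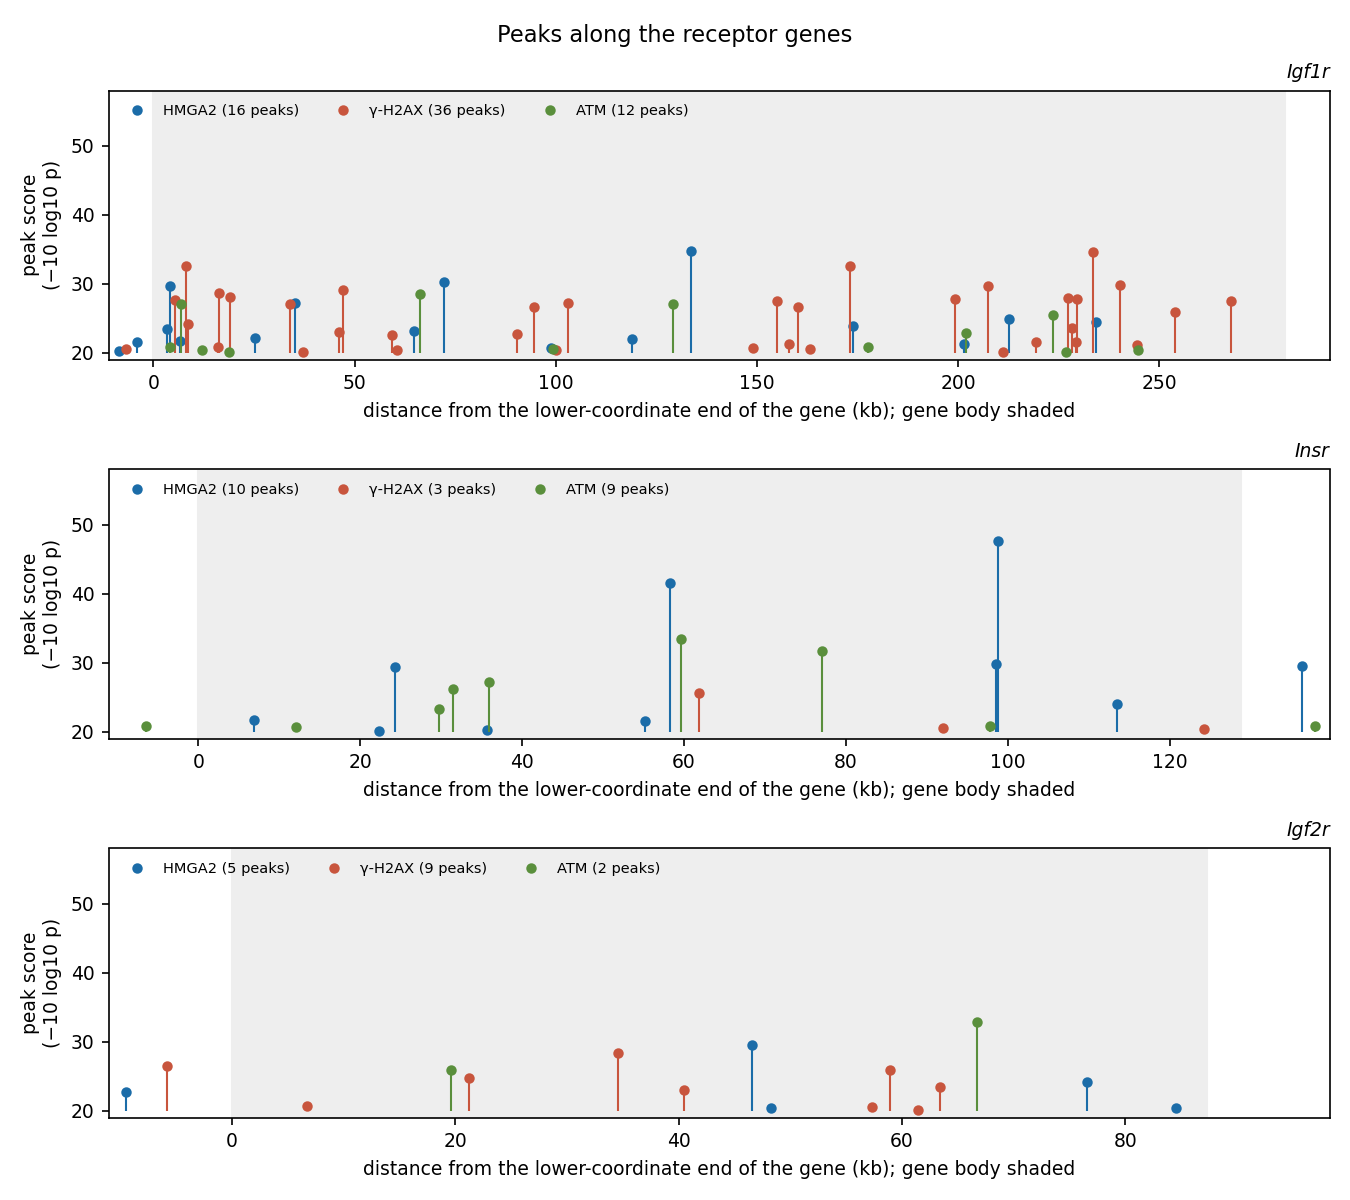
Peaks along Igf1r, Insr and Igf2r; the x axis is the distance from the lower-coordinate end of the gene in kb (body shaded), and the y axis is the authors' peak score. Igf1r holds 36 γ-H2AX peaks, 35 of them spread through its body, against 3 in Insr, where the highest HMGA2 peak reaches 47.6.

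The adaptor genes held few peaks each. Irs1 (chromosome 1, 82233105 to 82291439) held 7 HMGA2, 6 γ-H2AX and 3 ATM peaks, at ratios of 1.41, 1.55 and 0.809. An HMGA2 peak at 82292209 to 82292388 (score 24.4) was centred 0.86 kb upstream of its start, and a γ-H2AX peak at 82290351 to 82290525 (20.1) was centred 1.00 kb downstream of it. The start of Irs1 thus had an HMGA2 peak on one side and a γ-H2AX peak on the other, neither of which reached the promoter window. The highest peaks lay farther inside, with HMGA2 at 82273190 to 82273373 (29.1), γ-H2AX at 82240357 to 82240514 (34.1) and ATM at 82246699 to 82246849 (29.5). Next came HMGA2 at 82223718 to 82223955 (27.9), γ-H2AX at 82287235 to 82287381 (24.4) and ATM at 82241045 to 82241182 (26.1).

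Irs2 (chromosome 8, 10984681 to 11008929) held 3 HMGA2, 5 γ-H2AX and 2 ATM peaks. Its 3 HMGA2 peaks stood within 1.43 kb of each other, at 10999379 to 10999604 (score 32.9), 11000141 to 11000294 (28.9) and 11000598 to 11000806 (25.2), about 8.23 to 9.44 kb downstream of the start. This was the tightest group of 3 HMGA2 peaks in the 10 genes. The γ-H2AX ratio of 2.29 had an interval from 0.743 to 5.34, so the 5 peaks do not separate Irs2 from the density of its chromosome. They scored at most 24.2 (10993659 to 10993877), followed by 23.6 (10997175 to 10997326). Both ATM peaks lay beyond the 3′ end, at 10977475 to 10977684 (score 25.03) and 10976694 to 10976853 (22.3).

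Igf2bp1 (chromosome 11, 95957163 to 96005944) had the highest γ-H2AX ratio of the 10 genes. It held 14 γ-H2AX peaks against 2 HMGA2 and 3 ATM peaks, where 3.49, 3.47 and 3.12 were expected. The γ-H2AX ratio was 4.01 (2.19 to 6.73), that of HMGA2 0.577 (0.0699 to 2.08) and that of ATM 0.963 (0.199 to 2.81). Of all protein-coding genes, 217 (0.992%) had a γ-H2AX ratio as high or higher. As at Igf1r, the intervals of the other antibodies included 1. They rest on 2 HMGA2 and 3 ATM peaks, the ATM interval overlaps that of γ-H2AX, and the difference was not tested. The highest peak, at 95960639 to 95960825 (score 46.6), was also the highest γ-H2AX peak of the 10 genes, and the next was at 95987769 to 95988015 (34.8). Between 95985653 and 96002418, a stretch of 16.8 kb, there were 10 γ-H2AX peaks.

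One of these, at 96002257 to 96002418 (22.0), overlapped an HMGA2 peak at 96002070 to 96002326 (28.2) by 70 bp. The other HMGA2 peak of Igf2bp1, at 95957877 to 95958047 (20.7), and an ATM peak at 95956046 to 95956188 (23.0) had an edge within 1 kb of its lower end, on either side of it. Further ATM peaks were at 95960890 to 95961047 (22.6) and 95986746 to 95986940 (22.2), so 1 ATM peak lay next to the highest γ-H2AX peak without touching it.

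Igf2bp2 (chromosome 16, 22059009 to 22163299), the gene with the best known tie to HMGA2, held 9 HMGA2, 10 γ-H2AX and 11 ATM peaks. Expected were 8.36, 6.32 and 6.03. The HMGA2 ratio of 1.08 (0.492 to 2.04) was thus close to the density of the chromosome. Its ATM ratio of 1.82 (0.911 to 3.26) was the highest ATM ratio of the 10 genes, and that of γ-H2AX was 1.58. Position was uneven within the gene. All 6 HMGA2 peaks of the body lay between 4.29 and 29.67 kb of the start, on the 5′ side, and a gap of 78.9 kb without HMGA2 peaks followed toward and past the 3′ end. The highest of these was at 22158903 to 22159112 (score 30.2).

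An HMGA2 peak at 22164103 to 22164308 (25.6) was centred 0.91 kb upstream of the Igf2bp2 start. The highest HMGA2 peak of the locus, at 22049143 to 22049322 (34.6), lay 9.78 kb beyond the 3′ end, where it overlapped a γ-H2AX peak at 22049262 to 22049433 (25.7) by 61 bp. That place is the higher end of Senp2, a SUMO protease gene, at 22049269. A second HMGA2 peak with a partner, at 22134744 to 22134897 (23.25), shared 113 bp with an ATM peak at 22134618 to 22134856 (21.2). The highest ATM peaks of all 10 genes stood close together in the same 5′ part, at 22143354 to 22143462 (36.5) and 22141616 to 22141736 (36.2). The highest γ-H2AX peak, at 22086524 to 22086657 (26.85), was modest.

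Igf2bp3 (chromosome 6, 49085218 to 49215469) held 10 HMGA2, 13 γ-H2AX and 5 ATM peaks, at ratios of 1.13, 1.79 and 0.716. The γ-H2AX interval ran from 0.954 to 3.06. Part of the gene overlaps Malsu1, a gene for a mitochondrial ribosome assembly factor, which ends at 49139144, and 5 HMGA2, 4 γ-H2AX and 2 ATM peaks lie in that stretch. The highest γ-H2AX peaks were at 49162211 to 49162355 (score 37.0) and 49185856 to 49186013 (28.1), and the highest of HMGA2 at 49132883 to 49133032 (29.7) and 49166778 to 49166901 (28.9). An ATM peak at 49183236 to 49183373 (25.35) lay wholly within a γ-H2AX peak at 49183236 to 49183440 (20.2), with 138 bp in common. The highest ATM peak, at 49222079 to 49222247 (26.2), was upstream of the gene.

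**Figure D5:**
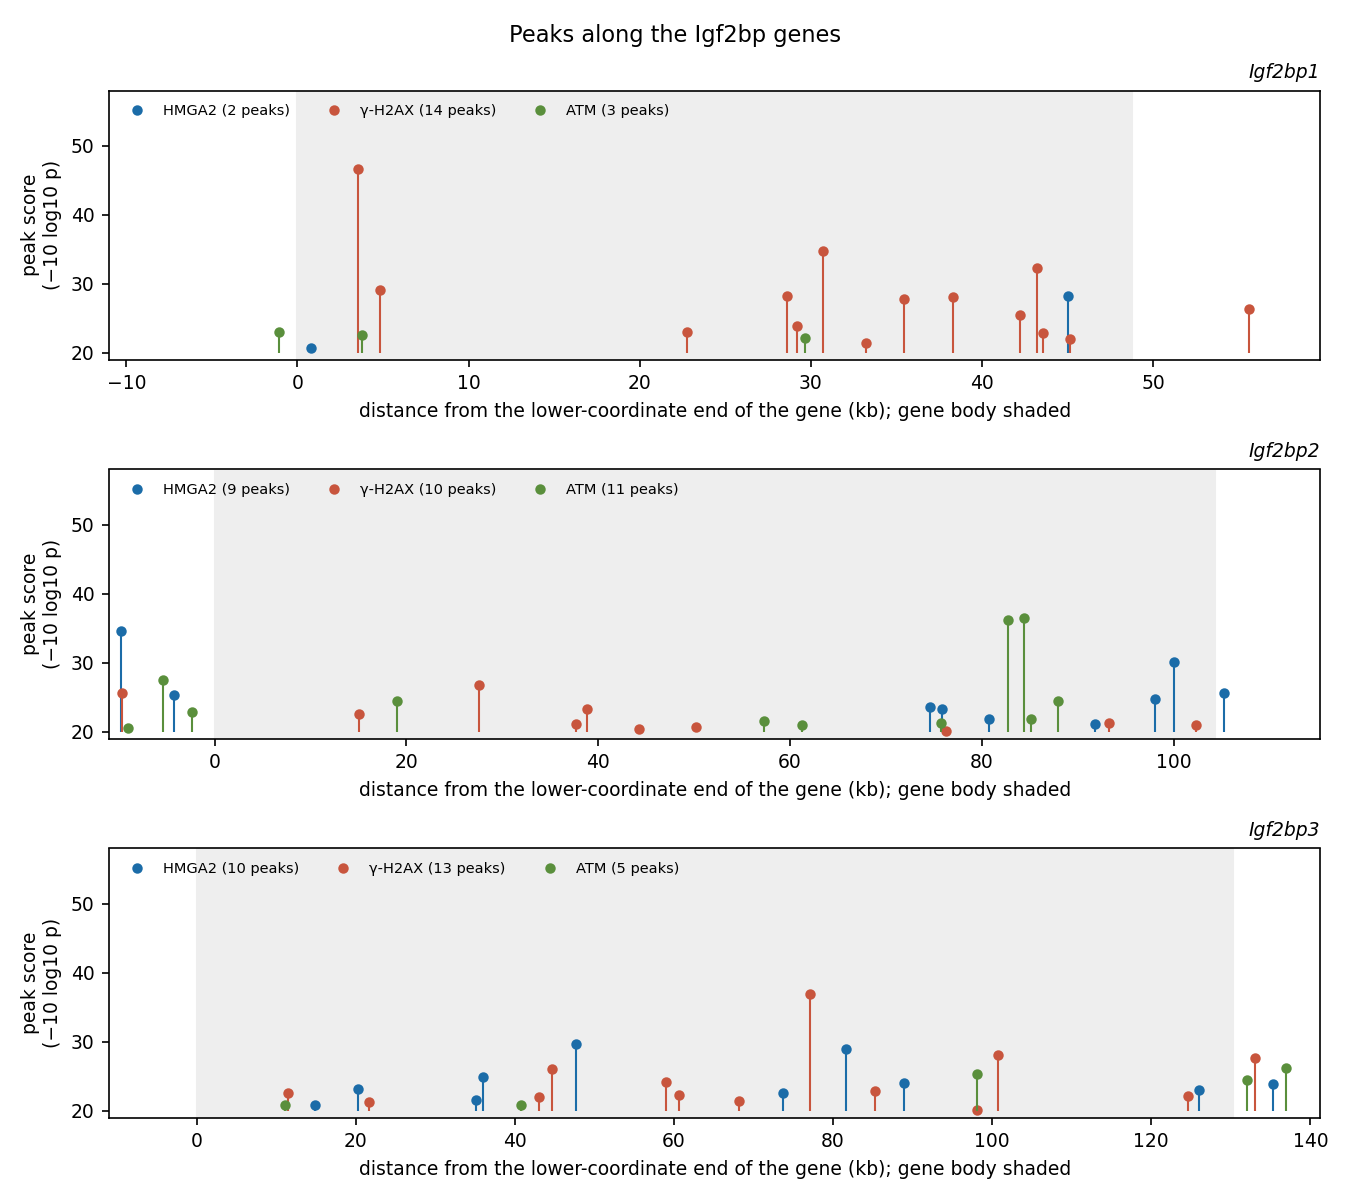
Peaks along Igf2bp1, Igf2bp2 and Igf2bp3; the x axis is the distance from the lower-coordinate end of the gene in kb (body shaded), and the y axis is the authors' peak score. Of the 14 γ-H2AX peaks of Igf2bp1, 13 lie within the gene of 48.8 kb. In Igf2bp2 the HMGA2 peaks of the body lie toward the higher-coordinate end, where the gene starts.

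The 3 RNA-binding protein genes held 37 γ-H2AX peaks against 17.1 expected (ratio 2.17), the receptor genes 48 against 25.6 (1.87), the adaptor genes 11 against 6.06 (1.81) and the ligand genes 9 against 6.84 (1.31). HMGA2 ratios in the same order were 1.02, 1.11, 1.34 and 0.486, and ATM ratios 1.18, 0.927, 0.868 and 0.940. In each of the 4 groups γ-H2AX had a higher ratio than ATM, a description with no test of the difference. Between antibodies these ratios are each relative to their own list.

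Peaks within 1 kb of an annotated gene end were found for HMGA2 at Irs1, Igf2bp1 and Igf2bp2, 3 of 10 genes (17.9% of all protein-coding genes). For γ-H2AX they were found at Igf1 and Irs1 (23.3%), and for ATM at Igf1 and Igf2bp1 (16.1%). The γ-H2AX promoter list had regions in the windows of Igf1 and Igf2r, 2 of 10 genes (14.4% of all protein-coding genes). The ATM promoter list had 1, at Igf1 (5.79%). The region at the Airn start belongs by position to Airn and not to the Igf2r promoter. Each region is identical to a peak of its antibody.

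Overlaps between antibodies were few. HMGA2 and γ-H2AX peaks overlapped by at least 1 bp in 3 places, at Igf1, Igf2bp1 and Igf2bp2, where rotation of the γ-H2AX list gave 1.10 on average (9.72% of all protein-coding genes held such a pair). HMGA2 and ATM peaks overlapped in 3 places against 1.05, at Igf2bp2 and, with 2 pairs, at Igf1r (7.58% of genes). The Igf1r pairs lay 4.10 to 6.84 kb from the start: HMGA2 at 67956286 to 67956435 (score 29.7) with ATM at 67956342 to 67956511 (20.8), and HMGA2 at 67958889 to 67959052 (21.7) with ATM at 67959032 to 67959164 (27.05). They shared 94 and 21 bp. γ-H2AX and ATM overlapped in 2 places against 1.64, at Igf2bp3 and at Igf1r (8.22% of genes), where a γ-H2AX peak at 68196790 to 68196957 (21.1) and an ATM peak at 68196943 to 68197151 (20.4) shared 15 bp. No place held peaks of all 3 antibodies. At these numbers 1 more or 1 fewer pair would change each ratio greatly. The average of 1.10 takes γ-H2AX peaks at the density of their chromosomes. It leaves out that the 10 genes held γ-H2AX peaks at 1.89 times that density. The shares of all genes are not matched for length, with a median of 17.2 kb against 83.0 kb for the genes described here.

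The other genes of the pathway were followed through a list of 32 genes, among them insulin genes, IGF-binding protein genes, proteases that cleave the binding proteins, adaptors and PI3-kinase subunits. The non-coding genes H19 and Airn and 3 genes that act upstream of the Igf2bp genes were included. They held 156 HMGA2, 173 γ-H2AX and 125 ATM peaks, each counted once although a few lie in the windows of neighbouring genes. The median HMGA2 ratio was 1.12, the median γ-H2AX ratio 1.17 and the median ATM ratio 0.946. Ratios over the whole list, in which a peak counts once for each gene window it lies in (158, 174 and 126 in all), were 1.13, 1.46 and 1.14.

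A γ-H2AX ratio of 2 or more was found at 6 of the 32 genes, where 14.8% of all protein-coding genes reached it: Pik3ca, the catalytic subunit gene of PI3-kinase (12 peaks against 4.90 expected), Grb2, an adaptor gene (11 against 4.29), Htra1, a secreted protease gene (7 against 3.0 expected), Hmga2 itself (16 against 7.22), Pappa, which encodes a protease of IGF-binding proteins (27 against 12.4), and Grb10, an imprinted adaptor gene that restrains the receptors (13 against 6.44). For HMGA2 this was so at 3 (Ins1, Igfbp3 and Igfbp6), beside 8.69% of all genes. For ATM it was so at 5 (Igfbp2, Igfbp4, Igfbp5, Htra1 and Irs4), beside 9.13%. All of these rest on 8 or fewer peaks, some of them shared. HMGA2 peaks at 7200041 to 7200208 and 7211829 to 7212040 count for both Igfbp3 and its neighbour Igfbp1. An ATM peak at 72858203 to 72858349 counts for both Igfbp2 and Igfbp5. Ratios of 0.5 or less were found at 7 of the 32 genes in the γ-H2AX list (27.3% of all genes), 11 in that of HMGA2 (37.6%) and 10 in that of ATM (28.7%). The counts for HMGA2 and γ-H2AX in either direction were near these shares. Against the density within 1 Mb, the γ-H2AX ratios of Pappa (1.51), Hmga2 (1.83) and Htra1 (1.915) were below 2. Those of Pik3ca (3.635), Grb2 (2.24) and Grb10 (2.38) stayed above 2.

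The highest-scoring pathway peaks included an HMGA2 peak in Grb14, another adaptor gene, on chromosome 2 at 64978113 to 64978355 (score 59.2), above any HMGA2 peak of the 10 genes. HMGA2 peaks followed at Hmga2 (44.4), Lin28b, which encodes an inhibitor of let-7 miRNA processing (41.6), and Igfbp7 (41.0 and 33.3). For γ-H2AX the highest were at Pik3r1, a regulatory subunit gene of PI3-kinase, on chromosome 13 at 101766497 to 101766896 (52.0), at Grb10 (46.1), at Pappa2 (44.7), at Hmga2 (43.6) and at Pappa (41.5). ATM peaks were highest at Grb14 (37.9), Pik3r1 (36.5), Sos1 (35.6), Hmga2 (33.85) and Airn (32.9), the last being the peak described within Igf2r.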

How the data were processed

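Peak lists of 3 wild-type libraries (HMGA2, H2AXS139ph, ATM) were analysed. MACS14 was run by the authors on single libraries with no model (p of 0.01, shift size 30 bp), per the labels. Tools and builds listed in the submitters' processing notes are mm10, Trimmomatic, Bowtie2, SAMtools and HOMER. Each deposited peak has a score by the authors, used only within its list. The promoter lists hold start and end alone, and how the authors chose them is not given in the sources used here. They were read as counting from 1, because all 2220 γ-H2AX regions and 788 of 866 ATM regions then equal a peak. The peak lists were read as counting from 0.

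Genes were taken from a RefSeq gene list (GRCm38.p6) that, in the form used here, gives no strand. Strand and starts came from the promoter windows. Exons were not annotated. Counting was checked on simulated lists and against bedtools. Python 3.11.15, numpy 2.4.6, pandas 2.3.3 and scipy 1.17.1 were used. Genes and lists were chosen with earlier results of these data known. Peaks named per gene and antibody are the 2 highest, those within 1 kb of an end, in a promoter list or overlapping another antibody. For pathway genes they are the 5 highest per antibody. A few further peaks were named after their values were seen. Alternatives changed the flank (0, 5, 25 kb), score minimum (30), overlap rule and expected number (density within 1 Mb). One flanking peak that meets this rule is not reported here.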

Additional observations from a re-analysis of the deposited data

How the results depend on the processing

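The γ-H2AX surplus over the 10 genes kept its direction in all 6 alternatives, with ratios from 1.58 to 2.05. It did so at Igf1r (2.31 to 2.88) and at Igf2bp1 (2.99 to 8.22) too. All these settings use peaks of the same library, and those that change the flank count largely the same peaks. Keeping the direction is therefore no independent support. With a score of 30 or more, though, the 1.58 rests on 9 peaks (interval 0.722 to 3.0) and the 2.31 of Igf1r on 3 (0.477 to 6.76), and both intervals include 1. The 8.22 of Igf2bp1 came from the same score minimum and also rests on 3 peaks (1.695 to 24.0). The HMGA2 ratio of the 10 genes rose to 1.32 with the expected number taken from the density within 1 Mb, and its interval of 1.02 to 1.68 then lay above 1. It otherwise lay between 0.955 and 1.03, and that of ATM between 0.908 and 1.14. With the local density, 2 genes reached a ratio of 2 for HMGA2 and 5 for γ-H2AX, and 1 gene in place of 2 was at 0.5 or less for γ-H2AX, since Insr rose to 0.670. A minimum score of 30 left few peaks. HMGA2, γ-H2AX and ATM peaks were then found at 4, 5 and 4 genes, ratios of 2 at 2 genes for HMGA2 and 4 for ATM, and ratios of 0.5 or less at 6, 5 and 6. Peaks at gene ends were then at 0, 0 and 1 genes, no overlap was left (0 for each pair), and the pathway ratios fell to 0.682 for HMGA2 and 0.884 for ATM. The γ-H2AX ratio of Irs2 fell to 0.0 and the ATM ratio of Igf2r rose to 2.07, on 0 and 1 peaks. In the gene body alone, 1 gene reached 2 for HMGA2, and 3 were at 0.5 or less for ATM, as with 5 kb flanks. With 25 kb flanks, 2 were at 0.5 or less for HMGA2 and 0 for ATM. Peaks within 500 bp of gene ends were found at 0, 1 and 1 genes for HMGA2, γ-H2AX and ATM, and within 5 kb at 7, 7 and 5. The alternatives were not run over all protein-coding genes, so no share or ratio of all genes stands beside their values. If at least 50% of the shorter peak had to be shared, 0 pairs of HMGA2 with γ-H2AX and 1 of γ-H2AX with ATM were left. Gaps of up to 500 bp gave 5 pairs of HMGA2 with γ-H2AX (4.27 expected), 6 of HMGA2 with ATM (4.08) and 9 of γ-H2AX with ATM (6.42). Higher score minimums, smaller windows and stricter overlap leave fewer peaks by construction. The cause of the other changes was not tested. No paired analysis was possible because each antibody and genotype has 1 library. Few peaks limit the shorter genes: the γ-H2AX ratio of 2.29 at Irs2 rests on 5 peaks.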
